A study of Populus davidiana with 6 samples.

Results

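Among the genes expressed in the leaf of an aspen, the 200 whose levels varied least over 6 RNA sequencing libraries are described here. Levels are in FPKM (fragments scaled by transcript length and library size), added up over a gene's transcripts, and the coefficient of variation (CV, the SD over the mean, n = 6 libraries) was taken. Genes could enter with at least 1 transcript marked known, a span of at least 2000 bp and a mean from 10 to under 300 FPKM. Of 40537 listed genes 9815 met these conditions and are called eligible below, and the 200 with the lowest CV are called the steadiest genes. The 6 values that chose them are therefore given as a description. A fit between the groups over all genes is quoted for its background, and its result for the 200 follows from the choice.

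The plants were Populus davidiana of cultivar Seogwang9, labelled drought tolerant, propagated from internodes on sterile medium and about 6 weeks old. Leaves of 3 control samples (control 1 to 3) were compared with leaves of 3 samples (air-dried 1 to 3) from plants taken out of the medium, rinsed and left in open air for some 10 minutes. The sources used here do not say whether controls were lifted and rinsed too, nor whether samples within a group are different plants. Any p-value therefore measures the spread between these samples, which could be technical.

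Genes whose transcripts stay at an even level serve as a yardstick in plant expression work. Quantitative PCR divides the signal of a gene of interest by that of such reference genes, and a reference that moves with the treatment distorts every ratio built on it. Steady transcript levels are usually associated with basal functions such as translation, protein turnover and vesicle traffic, while water loss in leaves is known to change transcript levels of signalling and protective genes within minutes. Which functions the 200 genes serve cannot be said here: the name column of the files was empty and no table used here pairs their accessions with names, so they are given by accession and position, and markers of leaf tissue could not be checked. Of the accessions 179 start with POPTR and 21 with XLOC.

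The libraries fell into 2 sets across the groups, known from earlier results of these data and named by no label. Set A is formed by control 1, control 2 and air-dried 1, and the other 3 libraries form set B. Transcript levels had rank correlations of 0.817 to 0.863 between libraries of one set, and of 0.733 to 0.773 between libraries of different sets. Sequencing depth relative to control 1, read from the steps of low values, was lowest in air-dried 1 (0.894) and highest in control 3 (1.34). Over genes that averaged 1 FPKM or more, the median level lay between 11.8 and 12.6 in the 6 libraries.

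The steadiest gene was POPTR_0016s02790.r1, on the plus strand of chromosome 16 (1381326 to 1385208), with a CV of 1.28%. Its level was 85.4, 84.1 and 86.0 FPKM in the controls and 86.4, 87.0 and 87.0 FPKM in the air-dried leaves. As deposited, each air-dried value was higher than each control, and the group means were 1.90% of the mean apart. Such an order was found in 15.9% of genes that averaged 1 FPKM or more. With libraries scaled to the same median or to the same upper quartile, the groups overlapped. In leaf tissue as a whole, an even level may hide fewer cells of a type with more RNA per cell, which bulk RNA cannot tell apart.

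POPTR_0002s02880.r1, on the plus strand of chromosome 2 (1769987 to 1773605), followed with a CV of 1.41%. It was measured at 33.0, 33.1 and 31.9 FPKM in the controls and at 32.7, 32.7 and 33.2 FPKM after drying. The groups overlapped, and control 3 was the lowest library. POPTR_0002s14690.r1, on the minus strand of chromosome 2 (10915086 to 10918930), had a CV of 1.51%. As deposited, its values were 35.9, 35.5 and 35.8 FPKM in the controls and 36.3, 37.0 and 36.5 FPKM in the air-dried leaves. The groups again did not overlap, but under both scalings they did. POPTR_0009s08720.r1, on the plus strand of chromosome 9 (7884438 to 7888036), had 18.4, 18.3 and 17.5 FPKM in the controls and 18.2, 18.1 and 17.9 FPKM after drying, a CV of 1.76%. These 4 genes were those with a CV under 2%.

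The next 8 genes had CVs from 2.02% to 2.19% and mean levels from 15.8 to 175.7 FPKM. POPTR_0001s41370.r1 (chromosome 1, minus strand, 40995171 to 40997393) was the most abundant of them, with 176, 172 and 171 FPKM in the controls and 176, 178 and 181 FPKM in the air-dried leaves. POPTR_0001s33930.r1 (chromosome 1, plus strand, 32092687 to 32095001) had 112, 108 and 115 FPKM in the controls and 111, 113 and 111 FPKM after drying. In both genes the groups overlapped. POPTR_0011s00650 (chromosome 11, plus strand, 324675 to 327731), the one gene of the 12 with a single listed transcript, had 79.5, 83.1 and 83.3 FPKM in the controls and 80.2, 79.9 and 82.4 FPKM after drying. The others were XLOC_027648 (mean 26.7 FPKM), POPTR_0006s00270.r2 (15.8), POPTR_0003s09330.r1 (24.5), POPTR_0001s28020.r1 (24.1) and POPTR_0008s01320.r1 (51.1).

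**Figure D1:**
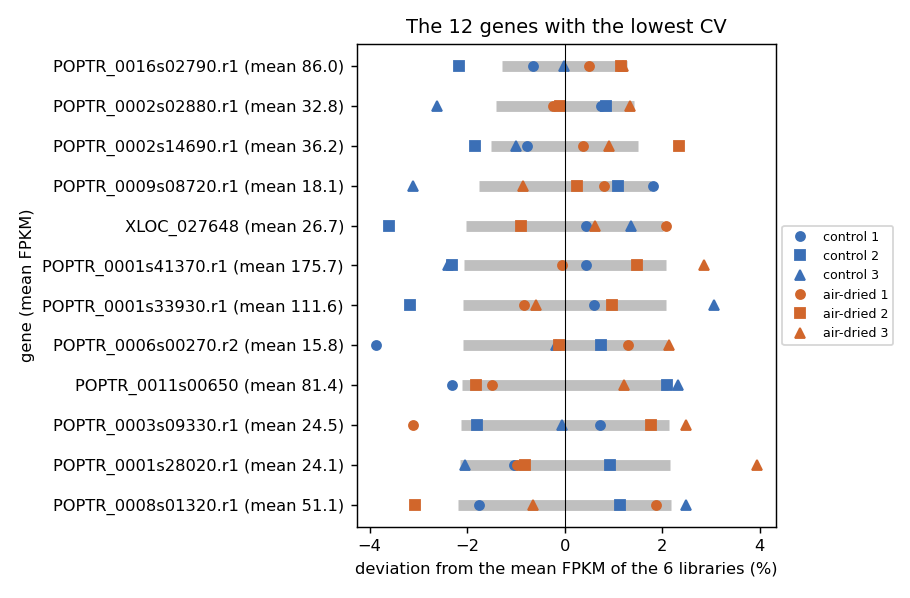
Each row is 1 of the 12 genes with the lowest CV, and each point is 1 library, as the deviation in percent from that gene's mean FPKM over 6 libraries (blue, controls; orange, air-dried; the grey bar is the mean ± 1 SD, n = 6). The row of POPTR_0016s02790.r1 is the narrowest, with a CV of 1.28%, and that of POPTR_0008s01320.r1 has a CV of 2.19%.

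Of the 200 genes 56 had a CV under 3%, and 195 had one under 4%. The median CV was 3.40%, the quartiles were 2.95% and 3.71%, and the median of all 9815 eligible genes was 10.7%. No gap separated the 200 from the genes that follow. The last inside were POPTR_0015s10500.r1, POPTR_0008s06550.r1 and POPTR_0001s37730.r1, each at a CV of 4.01%. The first outside were POPTR_0011s09080.r1, POPTR_0002s00540.r1 and POPTR_0016s12030.r1, at 4.02%, 4.02% and 4.03%. The following 200 genes had a median CV of 4.35% and ended at 4.62%. In a gene of the 200, the highest library stood above the lowest by a median of 8.89% of the mean, against 28.4% in eligible genes.

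The steadiest genes covered the whole range of levels that the rule allowed. Their mean was 10.05 to 275.9 FPKM with a median of 31.2 FPKM, where eligible genes had a median of 23.9 FPKM. From 10 to under 20 FPKM they made up 1.32% of eligible genes (53 of 4015), from 20 to under 50 FPKM 2.09% (78 of 3739), from 50 to under 100 FPKM 3.46% (45 of 1302) and from 100 FPKM on 3.16% (24 of 759). The median CV of eligible genes was close to level across these classes, at 11.1%, 10.4%, 10.5% and 11.9%.

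The depth limits how small a CV can be read at the low end. In each library, 83 to 91 unspliced loci of at least 600 bp stood above a small floor in FPKM. Their lowest product of FPKM and length was taken as 1 fragment. Neither this assumption nor the floor was tested. On that reading 10 FPKM over 1 kb of transcript corresponded to 122 to 184 fragments, depending on the library, and counting alone gave a CV of 9.05% to 7.38%. At 100 FPKM it gave 2.86% to 2.33%. Even with the whole genomic span counted as transcript, 28 of the 200 genes had a CV below that of counting.

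**Figure D2:**
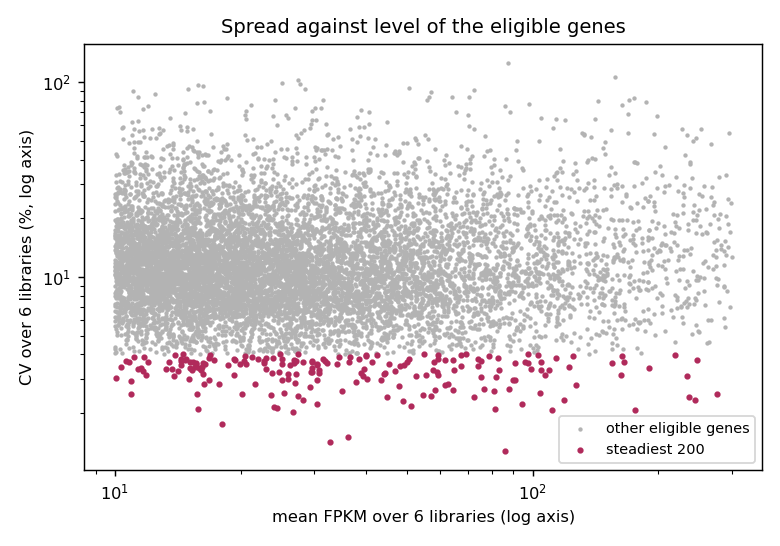
The CV over 6 libraries in percent (vertical, log axis) is plotted against mean FPKM (horizontal, log axis) for 9815 eligible genes, with the steadiest 200 in dark red and the others in grey. The 200 form the lower edge of 1 continuous cloud, from 10.05 to 275.9 FPKM, under a CV of 4.01%.

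The most abundant of the 200 was POPTR_0013s13220 (chromosome 13, plus strand, 13778154 to 13781064), with 273, 272 and 285 FPKM in the controls and 271, 270 and 284 FPKM in the air-dried leaves. Within both groups the third library was the highest, and both of these belong to set B. The lowest value, 270 FPKM, was also from an air-dried library of set B, so the levels of this gene did not follow the sets. POPTR_0013s13150.r1, on the opposite strand of the same chromosome (13716830 to 13723821), had 239.6, 239 and 260.2 FPKM in the controls and 243, 258 and 249 FPKM after drying. Here the 3 libraries of set A were the lowest. POPTR_0010s26130.r1 (chromosome 10, minus strand, 21465638 to 21473157) had 241, 245 and 242 FPKM in the controls and 239, 248 and 255 FPKM after drying, with overlapping groups.

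At the low end, POPTR_0006s26850.r1 (chromosome 6, minus strand, 24927000 to 24934153) had 9.91, 10.3 and 9.97 FPKM in the controls and 9.54, 10.2 and 10.3 FPKM in the air-dried leaves. POPTR_0017s11480.r1 (chromosome 17, 11224956 to 11227265) averaged 10.4 FPKM and POPTR_0018s14640.r1 (chromosome 18, 14773751 to 14780519) 10.6 FPKM. For these 3 genes the groups overlapped. Their CVs of 3.01%, 3.46% and 3.72% lie where counting error is largest.

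Controls and air-dried leaves differed little in the 200 genes, as the rule requires. The difference of the group means (air-dried minus control) was -5.55% to 6.42% of the mean, and its median size was 1.93%, against 9.84% in eligible genes. In limma (two-sided, Benjamini-Hochberg adjusted p under 0.05, log2(FPKM + 1), 22356 genes tested) 0 of the 200 were called. The background was 13.0% of genes tested (5.60% higher and 7.44% lower after drying), and 0 of the 200 had even an unadjusted p under 0.05. The groups did not overlap in 12 of the 200 that were higher after drying and 6 that were lower. Over all genes tested, 15.9% and 16.8% did not overlap in these directions, together 32.7%. Since the choice used this contrast, nothing is read from these counts.

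Higher means in air-dried leaves were found in 121 of the 200 genes, a split that turned with the scaling. With libraries scaled to the same upper quartile 69 were higher and 131 lower, and with the same median 123 were higher. Relative to each gene's mean, the median of the 200 was -1.52%, -0.116% and 0.386% in controls 1 to 3, and 0.253%, -0.628% and 1.19% in air-dried 1 to 3. The medians of eligible genes had the same order at the ends, from -3.46% in control 1 to 3.31% in air-dried 3. Control 1 was the lowest library in 56 of the 200 genes and the highest in 17, while air-dried 3 was the highest in 48 and the lowest in 25. Between the sets (B minus A) the difference was -4.48% to 6.26% of the mean, and its median size of 2.04% was near that between the groups.

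Steadiness was then read in a library that the choice had not used. When the rule was run on 5 libraries, the 200 genes taken had a median CV of 2.75% to 3.07% there. In the library left out, the median size of their deviation from the mean of the other 5 was 5.44% (control 2) to 7.60% (air-dried 2). All genes eligible on the same 5 libraries deviated by 8.54% to 10.6%. The genes taken thus deviated less than eligible genes in all 6 left-out libraries, and by more than their spread in the libraries that chose them. Between 65 and 93 of the 200 lay within 5% of the mean, which is 32.5% to 46.5%, against 24.6% to 32.0% of eligible genes. A deviation of over 20% was found in 5 to 9 of the 200, against 16.8% to 21.3% of eligible genes. These deviations hold shifts of a whole library. In air-dried 3 the median deviation was 6.77% for the genes taken and 3.76% for eligible genes. With the eligible median taken off in each library, the median sizes were 4.73% to 6.29% for the genes taken and 8.54% to 9.89% for eligible genes. The 6 lists share most libraries and are not independent of each other, and these values are a description.

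**Figure D3:**
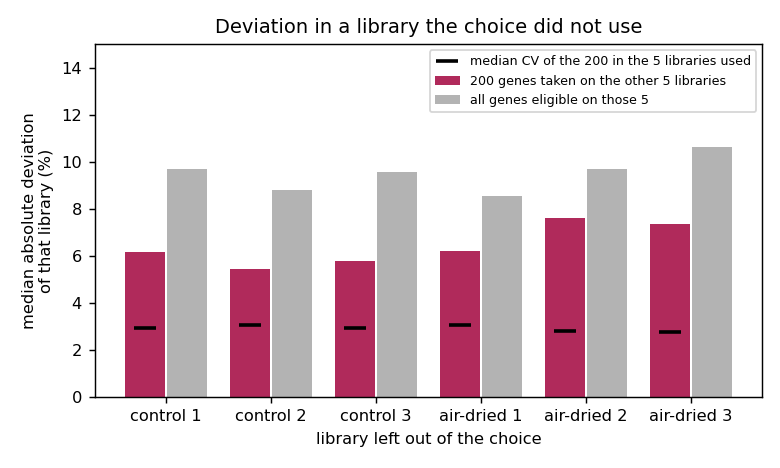
For each library left out in turn, bars give the median size of the deviation (percent) of that library from the mean of the other 5, for the 200 genes taken on those 5 (dark red) and for all eligible genes (grey). The dark bars, 5.44% to 7.60%, are lower than the grey bars, 8.54% to 10.6%, and higher than the black marks, the median CV of the 200 in the libraries used (2.75% to 3.07%). The CV of the marks is a different measure from the deviation of the bars.

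Lists chosen on 1 group were then followed into the other. The 200 genes steadiest in the 3 controls alone had CVs of at most 1.23% there and a median CV of 7.22% in the air-dried libraries, where eligible genes had 8.42%. Their level differed between the groups by a median of 11.0%, against 9.97% in eligible genes. The 200 steadiest in the 3 air-dried libraries alone had a median CV of 6.07% in the controls, against 7.62%, and differed between the groups by 9.78%, against 9.67%. Lists chosen on 1 library set differed less than eligible genes from that set to the other, by a median of 6.03% against 8.16% when chosen on set A and of 6.56% against 8.14% when chosen on set B. Of the 200 genes chosen on all libraries, 16 were also among the 200 of the controls and 28 among those of the air-dried leaves.

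A smaller number of genes were chosen again under each of 8 changes of input. With each library left out in turn, 101 to 125 of the 200 were chosen again, and 60 were chosen all 6 times. Scaling the libraries to the same median kept 101 genes, scaling to the same upper quartile kept 104, and 38 genes, on 13 chromosomes, were in all 8 of these lists. Summing known transcripts alone kept 75 of the 200, and the median absolute deviation in place of the SD kept 59. The 38 genes had CVs from 1.28% to 3.12% as deposited, and at most 3.84% under either scaling, with means from 10.9 to 244.9 FPKM. With known transcripts alone the CVs of the same 38 had a median of 8.10%, exceeded 10% in 18 genes and reached 244.9% (XLOC_015436), and 21 of the 38 were chosen by the median absolute deviation. That low CVs survive the loss of a library follows in part from the choice on all 6.

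Within these 38, 13 were also chosen when known transcripts alone were summed. In the single-transcript genes POPTR_0011s00650, POPTR_0003s21590, POPTR_0001s47580 and POPTR_0006s15090 the known sum is the whole sum. For these the setting could not change the CV, and their place among the 13 adds nothing. POPTR_0016s02790.r1 was among the 13, with a CV of 1.598% for its known transcript. Its sum had a CV of 3.20% with libraries scaled to the same median. POPTR_0002s08280.r1 (chromosome 2, plus strand, 5776199 to 5781249) had 91.1, 97.6 and 94.9 FPKM in the controls and 95.2, 93.8 and 94.8 FPKM after drying. Its CV was 2.23% as deposited, 1.71% with the same median and 2.44% with the same upper quartile. POPTR_0001s40980.r1 (chromosome 1, plus strand, 40546862 to 40555293) had 102, 107 and 101 FPKM in the controls and 106, 104 and 108 FPKM after drying, with a CV of 2.53% as deposited and 1.44% with the same upper quartile. In both genes the groups overlapped. The single-transcript gene POPTR_0003s21590 (chromosome 3, plus strand, 19688393 to 19693386) had 34.5, 35.2 and 36.3 FPKM in the controls and 35.3, 33.6 and 35.5 FPKM after drying. These last 3 genes were chosen after their values were seen.

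The share of a transcript in its gene's sum was not part of the rule, while the CV of the sum was. Of the 200 genes 174 had more than 1 listed transcript, and in 155 of these (89.1%) the leading transcript, the one with the highest mean share, had a larger CV than the gene. In eligible genes with more than 1 transcript this was so in 75.6%. The choice of sums with a low CV favours such an order, and nothing is read from the difference. The median CV of the leading transcript was 7.73%, where the sums of the same 174 genes had 3.36% and leading transcripts of eligible genes 15.8%. It exceeded 20% in 30 of the 174 (17.2%), against 37.3% of eligible genes. The share of the leading transcript had a median range over the 6 libraries of 14.4 percentage points, against 18.6 in eligible genes. The leading transcript was the same in all 6 libraries in 136 of the 174 genes (78.2%, against 68.7% in eligible genes). The 200 genes next in CV were alike, with a median CV of leading transcripts of 8.18%, over 20% in 17.4%. Their shares had a median range of 13.4 points, and 80.9% kept the same leading transcript. Leading transcripts of the 174 held a median of 83.2% of sums chosen for a low CV. Their lower CVs follow in part from that choice, and nothing is read from these differences. Of the 174 leading transcripts 111 were known, and the others were assembled from the reads.

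**Figure D4:**
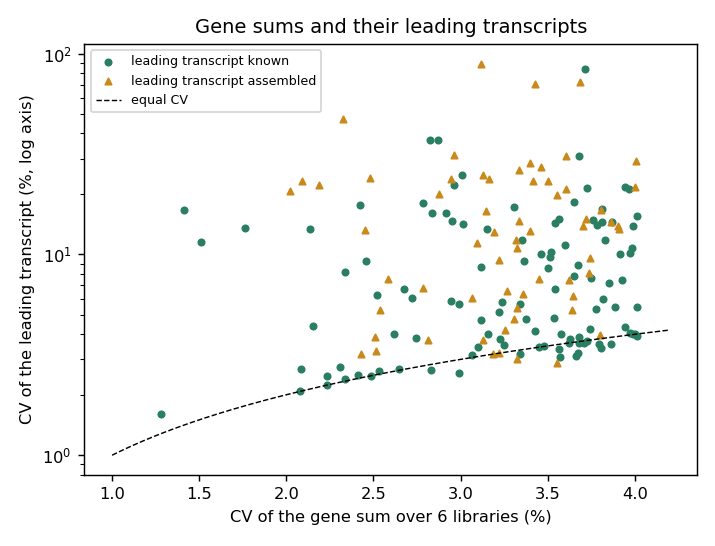
The CV of the leading transcript (vertical, percent, log axis) is plotted against the CV of the gene sum (horizontal, percent) for the 174 genes with more than 1 listed transcript, by whether the leading transcript is known or assembled. Points above the dashed line of equal CV are the 155 genes whose leading transcript varied more than the sum.

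In 8 genes the leading transcript's share ranged over more than 50 percentage points while the sum stayed within the rule. POPTR_0006s27320.r1 (chromosome 6, plus strand, 25263103 to 25266262) had a sum of 22.4, 24.1 and 22.2 FPKM in the controls and 23.0, 22.9 and 21.7 FPKM after drying, a CV of 3.71%. Its known transcript held 99.998%, 99.9997% and 20.9% of the sum in controls 1 to 3 and 99.96%, 16.9% and 5.53% in air-dried 1 to 3. An assembled transcript listed with the same start and end held the rest. The known transcript alone had a CV of 83.3% and the assembled one 109.9%. The change of transcript followed the library sets and crossed the groups.

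POPTR_0001s23990.r1 (chromosome 1, plus strand, 23371372 to 23378114) had a sum of 11.7, 12.1 and 11.8 FPKM in the controls and 11.8, 11.5 and 12.6 FPKM after drying, a CV of 3.12%. One assembled transcript held 99.7%, 94.7% and 2.07% in controls 1 to 3, and 99.9%, 0.0615% and 30.4% in air-dried 1 to 3. A second assembled transcript held 0.334%, 2.04% and 78.9%, and 0.0741%, 91.7% and 57.4%. In POPTR_0002s08170.r1 (chromosome 2, minus strand, 5653462 to 5657125), with a CV of 2.33%, the known transcript held 59.8%, 54.5% and 6.96% in the controls and 73.0%, 5.05% and 24.1% after drying. In all 3 genes the libraries of set A stood on one side and those of set B on the other.

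**Figure D5:**
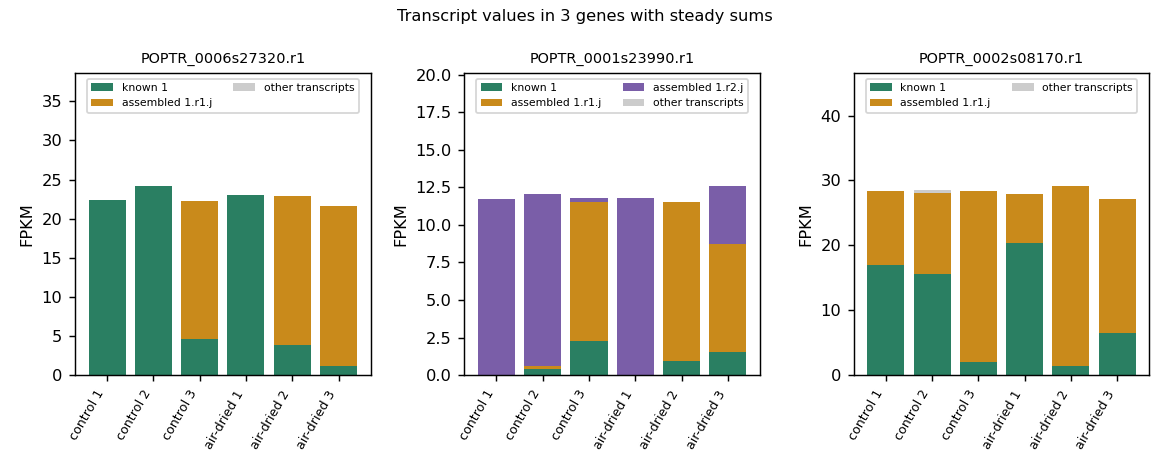
Stacked bars give the FPKM of the listed transcripts in each library for 3 genes picked out after their values were seen (green, known; other colours, assembled; grey, remaining transcripts with a mean share under 5%). Bar heights are 21.7 to 24.1 FPKM in POPTR_0006s27320.r1, while the known transcript holds 99.96% or more in controls 1 and 2 and air-dried 1 and 5.53% to 20.9% in the other libraries.

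Transcript shares were tested between controls and air-dried leaves with limma on the arcsine square root of the share, for 38323 transcripts with a mean share of 5% to 95%. These belonged to 13516 genes, 123 of them among the 200. No gene passed an adjusted p of 0.05, neither among the 123 nor among all 13516 (0%). On simulated shares this fit recovered large shifts only in part and smaller ones not at all, so the lack of calls does not show that shares were alike in the groups. At an unadjusted p under 0.05, 7 of the 123 and 1142 of the 13516 had a transcript that passed. The lowest unadjusted p among the 123 belonged to an assembled transcript of POPTR_0013s06770.r1, with shares of 19.1%, 16.1% and 25.3% in the controls and 7.34%, 7.18% and 7.20% after drying (limma adjusted p = 0.9996). The groups did not overlap. In POPTR_0003s09330.r1 the known transcript held 86.7%, 71.2% and 73.2% in the controls and 95.03%, 88.6% and 96.7% after drying (limma adjusted p = 0.9996), also without overlap.

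Between the library sets, at least 1 transcript share was called in 8 of the 123 genes (6.50%). The background was 4.64% of all genes tested and 5.24% of eligible genes, so the share among the steadiest genes was near it. The sets were found from levels of the same transcripts, and these counts describe that split without testing it. Beside the 3 genes above, the calls included XLOC_027101 and POPTR_0014s03410.r1. A known transcript of XLOC_027101 (chromosome 4, minus strand, 20911027 to 20928372), the gene with the most listed transcripts among the 200 (24), held 29.6%, 20.5% and 13.4% in control 1, control 2 and air-dried 1, and had at most 5.21e-09 FPKM in the libraries of set B. The sum of this gene was 132, 126 and 124 FPKM in the controls and 126, 123 and 131 FPKM after drying. An assembled transcript of POPTR_0014s03410.r1 (chromosome 14, plus strand, 2746788 to 2751216) held 21.0%, 12.4% and 17.4% in the same libraries, and had at most 4.8e-06 FPKM in set B. With the group as a term 1 of the 123 genes was called, with each library left out 1 to 3, and with untransformed shares 3.

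Structural features, which the rule used only through the minimum span and the need for at least 1 known transcript, were compared with eligible genes. The median span was 4703 bp, against 4459 bp. A single transcript was listed for 26 genes (13.0%, against 7.67%), and the median number of transcripts was 4 in both lists. Single transcripts were listed for 11.0% of the 200 genes next in CV. In the 200 eligible genes with the highest CV it was 16.0%, so this trait is not particular to the steadiest genes. Known transcripts held a median of 83.5% of a gene's sum, against 60.2% in eligible genes and 70.2% in the 200 genes next in CV. This share, unlike the other features, is computed from the FPKM values that the rule summed. In 15 genes (7.50%) the span overlapped that of another listed gene. This was so in 10.0% of the 200 genes next in CV and in 12.8% of eligible genes. Among the 200 eligible genes with the highest CV it was so in 50. Overlapping genes can share reads, and the sources used here give no strand setting for the counting. The longest spans were those of XLOC_007451 (134365 bp on chromosome 11, 12624978 to 12759342, overlapping 14 other genes) and XLOC_028074 (109535 bp on chromosome 5, 16114831 to 16224365, overlapping 5). These differences between the lists were not tested.

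The 200 genes were spread over all 19 numbered chromosomes, with 2 on scaffolds. Chromosome 1 held 29, chromosome 5 held 24 and chromosome 6 held 18. As a share of eligible genes, the numbered chromosomes ranged from 0.29% on chromosome 12 (1 of 345) to 3.71% on chromosome 5 (24 of 647), with no test of this spread. The plus strand carried 113 genes and the minus strand 87.

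Genes next to the steadiest genes are described with the 200 themselves left out, so the rule enters this list too. On numbered chromosomes 391 tested genes flanked the steadiest genes. Of these 57 (14.6%) were called between controls and air-dried leaves, 20 higher and 37 lower. This was near the background of 13.2% on these chromosomes, which includes the steadiest genes. Their log2 fold changes ran from -4.43 to 5.12. Among the 172 flanking genes that were eligible, the median CV was 10.3%, against 10.7% in all eligible genes. The rule had ranked these 172 and passed over them. Each therefore has a CV above those of the 200, and nothing is read from this comparison. In 1 case both neighbours were among the 200: POPTR_0005s20140.r1 (chromosome 5, minus strand, 19184867 to 19188870, mean 55.5 FPKM, CV 3.13%) and POPTR_0005s20150.r1 (plus strand, 19209395 to 19215216, mean 26.3 FPKM, CV 3.54%), which lie 20524 bp apart.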

How the data were processed

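TruSeq libraries of leaf poly(A) RNA were sequenced with paired 100 bp reads (HiSeq-2500), per the labels' protocols. The authors deposited FPKM per transcript, 1 file per library, per the file headers. The tools per the submitters' processing notes were FastQC, TopHat and Cufflinks. Versions, genome build and strandedness: not given in the sources used here. Coordinates are those of the files. Each file listed the same 112919 transcripts, 45773 of them marked known.

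From these values gene sums, CVs and transcript shares were computed as deposited, without rescaling (Python 3.11.15, pandas 2.3.3). Genes averaging 1 FPKM or more were compared between groups with limma 3.58.1 in R 4.3.3 (eBayes with trend, pseudocount 1, two-sided, Benjamini-Hochberg over all genes tested). Fits were tested on simulated data. The share fit recovered none of the smaller planted shifts, and larger ones, added after that was seen, were recovered in part. The fit itself was not altered. The sources used here hold no read numbers, so only approximate depth is stated.

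The members, lists and tests were chosen with earlier results of these data known. Named genes were the 12 lowest CVs, 3 on each side of the threshold, 3 at each end of level, 2 longest, 2 with most transcripts and the leading genes of the share fits. A single transcript of a gene with a mean share of 5% to 95% was tested for its share. Gene lists and leaf markers could not be used without gene names, and no sequences are shown. Alternatives covered scaling, pseudocount, filters, known transcripts, other spread measures, the replicate block, the library set and left-out libraries.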

Additional observations from a re-analysis of the deposited data

How the results depend on the processing

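Of the 200 steadiest genes, none was called between the groups by limma in the 15 alternatives of the gene fit (177 of them were tested with known transcripts only, and 8 had an unadjusted p under 0.05 there), and none had a called transcript share in the 11 of the share fit. With the replicate block 0 of the 200 were called as genes and 0 of the 123 for transcript shares. The replicate numbers were not taken as pairs. The deviations from group means had correlations of 0.187, -0.0961 and 0.292 for numbers 1, 2 and 3. Controls 1 and 3 correlated best with the air-dried library of the same number, while control 2 correlated better with air-dried 1 (0.16). Over all genes 2916 were called, 2121 with the replicate block, 1421 with known transcripts only and 1479 to 2001 on 5 libraries (1645 and 1479 when control 1 or 2 was missing, and 1884, 1722 and 1879 when air-dried 1, 2 or 3 was). A low spread between the groups is built into the choice, so the 0 calls of the 200 as genes say nothing about stability. In the list itself, scaling to the same median kept 101 of the 200 genes and to the same upper quartile 104, known transcripts only kept 75, and the median absolute deviation kept 59. The cause was not tested, except that left-out libraries (101 to 125 kept) mean fewer samples. The SD of log2 values kept 191, no minimum span 187 and a mean from 5 to under 1000 FPKM 170. The median CV of the 200 genes went from 3.40% to 8.69% with known transcripts only, with a maximum of 244.9%. Lists chosen anew had 3.99% with known transcripts only and 2.75% to 3.07% with a library left out. The 8 genes with a share called between library sets became 3 with untransformed shares, 5 with mean shares of 10% to 90%, 14 with a gene mean of at least 5 FPKM, 1 with the group as a term and 1 to 3 with any of the 6 libraries left out. Over all genes these calls went from 627 to 166 with the group as a term and to 179 to 400 with a library left out. For the 24 genes named by rank, level, span or number of transcripts the CV reached at most 5.83% under the scalings and 4.47% with a library left out, but 82.7% with known transcripts only. Absolute depth is approximate here, and counting error limits CVs at low levels.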

Other observations

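The 200 eligible genes with the lowest CV among the 3 controls and the 200 with the lowest CV among the 3 air-dried libraries shared 9 genes, 4.50% of each list, and 3 of these were among the steadiest genes over all libraries: POPTR_0016s02790.r1, POPTR_0002s14690.r1 and POPTR_0004s20930.r1. The change between the group means, which neither choice used, ran from -35.2% to 29.9% of the control mean in the 9 genes. In the limma fit 2 of the 9 were called, against 13.0% of all genes tested. Of the 200 genes of each choice, 34 (controls) and 33 (air-dried) were called, against 11.8% of eligible genes. Both lists were chosen for a low spread within 1 group, which enters this fit, so nothing is read from these counts. POPTR_0005s17270.r1 (chromosome 5, plus strand, 14527425 to 14532017) had 278, 280.2 and 277 FPKM in the controls and 181, 181 and 179.5 FPKM in the air-dried leaves (log2 fold change -0.62, limma adjusted p = 0.00379). POPTR_0001s38100.r1 (chromosome 1, plus strand, 37149614 to 37156127) had 18.4, 18.4 and 18.1 FPKM in the controls and 23.7, 23.7 and 24.0 FPKM after drying (log2 fold change 0.36, limma adjusted p = 0.0121). In both genes the groups did not overlap, as in 32.7% of all genes tested, and each group spanned under 2% of its mean. POPTR_0004s20930.r1 (chromosome 4, plus strand, 20283429 to 20288130), one of the 200, had 19.9, 19.6 and 19.9 FPKM and 20.8, 20.5 and 20.7 FPKM. These genes were picked out after their values were seen and for a low spread within the groups, which also enters the p-values. Whether the number of shared genes stands apart was not tested.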
